A study of Homo sapiens with 32 samples.

Results

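Cells whose IGF2BP3 carries a degron tag were compared with their untagged parental line while both were under endoplasmic reticulum (ER) stress and neither had received auxin. The comparison took the 8 stressed, vehicle-treated libraries out of the 32 of the study, chosen by their labels: 4 of the tagged line and 4 of the parental line. Both lines derive from HCT116, a human colorectal carcinoma cell line, and carry the Tet-OsTIR1-PURO construct, a doxycycline-driven plant F-box protein that recruits degron-tagged proteins for destruction once auxin is present. The tagged line additionally carries mAID-IGF2BP3, in which the mini degron was placed on both endogenous copies of the gene. Every well of the 8 was given doxycycline (200 ng/mL, 24 h), tunicamycin (5 µg/mL, 5 h), DMSO in place of auxin, and 4-thiouridine (s4U; 250 µM, 2 h), each time counted back from collection. The other libraries, used below for further pairs of groups, had the same doxycycline and s4U. Their auxin wells were given 500 µM auxin for 9 h, and their unstressed wells DMSO in place of tunicamycin. The labels name 1 tagged line and give no number of clones, so the tag, the selection of the line and its later passage cannot be told apart. Each replicate was 1 well of a culture plate, so p-values here reflect only how much such wells vary.

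IGF2BP3 binds many messenger RNAs, is best known in embryonic tissue and tumours, and is commonly studied for effects on mRNA stability. By design, auxin should remove the tagged protein and vehicle should leave it in place, though the protein level with vehicle was not analysed here. A difference between the lines without auxin is the baseline against which an auxin experiment is read. Tunicamycin blocks N-linked glycosylation and thereby sets off the unfolded protein response (UPR), in which IRE1, PERK and ATF6 raise chaperones, degradation factors and the transcription factors ATF4 and CHOP. In SLAM-seq, s4U built into new RNA is read as T-to-C conversions, so 1 library gives the total reads of a gene, its labelled (new) reads and the labelled share of its reads.

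Reads in named genes numbered 4.19 M to 6.98 M per parental library and 2.98 M to 4.21 M per tagged library, and 12588 to 12915 and 12356 to 12549 genes had at least 1 read. Levels are given as CPM, the reads of a gene scaled to a common library size. The epithelial markers EPCAM, KRT8, KRT18, KRT19 and CDX2 were read in every library, whereas the intestinal markers CDX1, VIL1, LGR5 and CDH17 had 0 reads in all 8. Markers of other cell types were low: 7 of 9 fibroblast markers had 0 reads in both lines, with the summed list at 21.5 to 30.2 CPM on unscaled library sizes in parental and 27.5 to 31.3 in tagged libraries, nearly all of it COL1A1. On the same sizes the leukocyte list summed to 4.71 to 7.17 and 4.52 to 7.36 CPM with PTPRC at 0, and the endothelial list to at most 1.27. The 10 most abundant genes took 4.95% to 5.32% of parental and 5.07% to 5.81% of tagged reads.

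The messenger RNA of the tagged gene itself was measured first. IGF2BP3 (chromosome 7, 23310209 to 23470491, hg38, counted over 2153 bases at the 3′ end) stood at 147.6, 163.4, 154.5 and 168.2 CPM in the parental libraries and at 173.9, 151.2, 160.6 and 183.4 CPM in the tagged ones. The 2 groups overlapped, and the log2 difference, tagged minus parental, was 0.08 ± 0.11 (standard error, SE; edgeR adjusted p 0.802). A 3′ count does not read the tag, so it does not check the genotype, and protein was not analysed here. IGF2BP2, a related RNA-binding protein, had 331 ± 10.1 CPM (SD, n = 4) in parental and 356 ± 19.9 CPM in tagged cells (0.10 ± 0.12, edgeR adjusted p 0.761). IGF2BP1, the remaining member of the family, had 5 reads over all parental and 10 over all tagged libraries and was not tested. Of 16 tested genes starting within 2 Mb of IGF2BP3, 0 passed the threshold against 0.411% of all genes, and their median log2 difference was -0.08.

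Across 11184 genes, the tagged line differed from the parental line in 46 genes at an edgeR adjusted p under 0.05, which is 0.411% of the genes tested. Tagged cells were higher in 24 of them (0.215%) and lower in 22 (0.197%). At an unadjusted p under 0.05 there were 1290. The higher genes included SYK, MAL2, S100A14, AP1M2, ELF3 and CLDN4, which several kinds of epithelium express. The lower genes included SEMA3A, VCAN, VIM, S100A4 and CAV1, which are matrix, motility or mesenchymal genes, and the cell cycle kinase CDK6. Of the genes so described, only ELF3 and CLDN4 are on the epithelial list below, and only VIM, S100A4 and CAV1 on the mesenchymal one. The others were described so after the calls were seen. In all 46 genes the 4 libraries of one line lay above the 4 of the other, as they did in 12.1% of all genes. The median difference over all genes was -0.01. The count depended on libraries outside and inside the comparison. Dropping the smallest library of the study (parental cells with stress and auxin, replicate 1), which is no member of this comparison, gave 386 genes, and using only the 8 compared libraries gave 393. Leaving out parental replicate 1, 2 or 4 gave 20, 21 and 23 genes, and leaving out tagged replicate 1, 2 or 4 gave 26, 16 and 23.

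**Figure D1:**
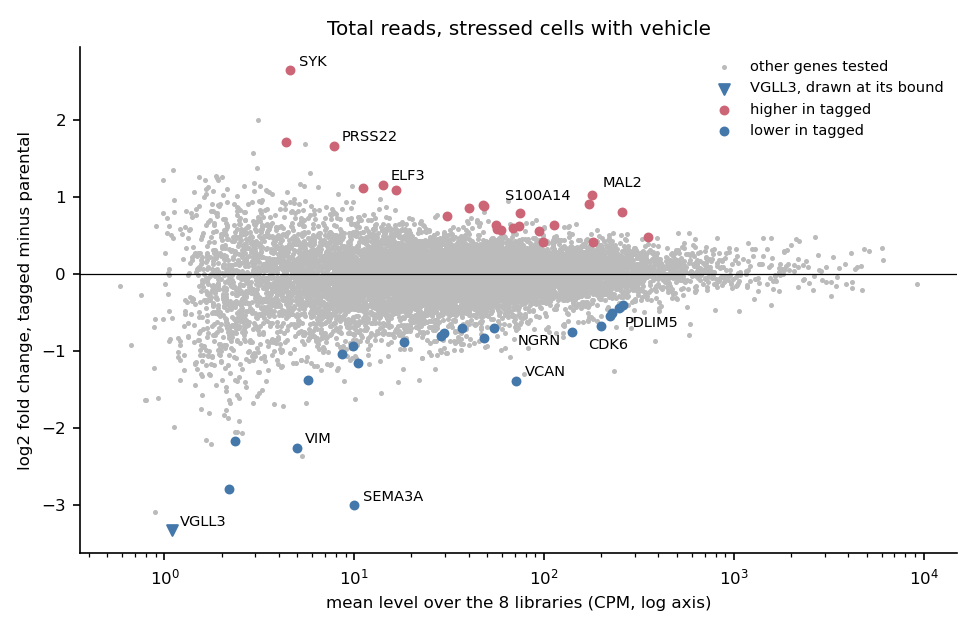
Log2 fold change of total reads, tagged minus parental, against the mean level over the 8 stressed, vehicle-treated libraries in CPM on a log axis, for 11184 genes (points). Coloured points are the 46 genes past the threshold, from SYK at 2.65 to SEMA3A at -3.00, and VGLL3, with 0 reads in tagged cells, is drawn at its bound of -3.32.

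Of the 24 higher genes, 5 that epithelia express are given first. MAL2, a membrane protein of apical transport in polarised epithelium, had 113, 118, 121 and 119 CPM in parental and 233, 248, 230 and 251 CPM in tagged libraries. The tagged libraries all lay far above the parental ones, a log2 fold change of 1.03 ± 0.13 (edgeR adjusted p 2.41e-05). S100A14 (chromosome 1, 153614255 to 153616325), a calcium-binding protein of epithelia, stood at 116, 114, 130 and 117 CPM against 202, 241, 224 and 228 CPM (0.91 ± 0.16, edgeR adjusted p 0.00373). AP1M2 (chromosome 19, 10572671 to 10587312), the medium subunit of the epithelial adaptor AP-1B, averaged 33.4 ± 3.71 CPM in parental and 62.0 ± 2.75 CPM in tagged cells (SD, n = 4). Its lowest tagged library, at 60.2 CPM, lay well above its highest parental one, at 38.5 CPM. ELF3 (chromosome 1, 202010587 to 202017183), an ETS-family transcription factor of epithelial differentiation, had 9.63, 9.29, 8.73 and 7.23 CPM in parental and 27.2, 14.6, 18.8 and 17.5 CPM in tagged libraries. Tagged replicate 1 was the highest, and without it the log2 fold change of ELF3, 1.16 ± 0.22 in full (edgeR adjusted p 0.00596), no longer passed (adjusted p 0.0606). CLDN4 (chromosome 7, 73830996 to 73832690), a tight-junction claudin, rose from 45.0 ± 5.10 to 67.7 ± 6.58 CPM (0.59 ± 0.12, edgeR adjusted p 0.0171). Its call ended on leaving out parental replicate 1 or 3 or tagged replicate 2 or 4 (adjusted p 0.0563 to 0.103).

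The promoters of ELF3, S100A14 and AP1M2 are shown because these 3 higher genes hold CACCTG, an E-box form known as a binding motif of the ZEB and SNAI repressors of epithelial genes, near their start. Each is the window from 250 bases before to 50 bases after the first start that RefSeq lists (GRCh38.p14), written on the gene's strand with CACCTG, or CAGGTG where the motif lies on the other strand, in capitals. ELF3 lies on the plus strand (chr1:202010337-202010636), and S100A14 (chr1:153616276-153616575) and AP1M2 (chr19:10587263-10587562) on the minus strand.
ELF3: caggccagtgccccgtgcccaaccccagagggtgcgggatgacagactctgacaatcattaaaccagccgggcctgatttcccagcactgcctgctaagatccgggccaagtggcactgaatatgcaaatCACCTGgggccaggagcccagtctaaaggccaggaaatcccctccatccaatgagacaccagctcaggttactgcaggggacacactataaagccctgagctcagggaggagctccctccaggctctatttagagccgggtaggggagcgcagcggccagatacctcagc
S100A14: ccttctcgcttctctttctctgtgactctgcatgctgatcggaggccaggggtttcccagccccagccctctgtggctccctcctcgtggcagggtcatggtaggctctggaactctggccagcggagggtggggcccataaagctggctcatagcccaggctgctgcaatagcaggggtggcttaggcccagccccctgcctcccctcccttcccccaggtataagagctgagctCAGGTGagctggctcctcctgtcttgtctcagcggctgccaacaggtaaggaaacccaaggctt
AP1M2: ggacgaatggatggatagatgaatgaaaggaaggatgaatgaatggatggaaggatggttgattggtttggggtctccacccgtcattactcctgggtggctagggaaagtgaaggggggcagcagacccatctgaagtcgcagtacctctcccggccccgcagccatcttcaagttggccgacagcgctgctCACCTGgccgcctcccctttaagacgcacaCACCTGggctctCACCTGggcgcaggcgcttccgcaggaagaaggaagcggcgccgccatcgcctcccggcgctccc
AP1M2 held the motif 3 times and the others once. CACCTG, searched on both strands, was found in 6 of 18 higher genes with a promoter in the table (33.3%: CDA, S100A14, ELF3, CRYBG1, SYK and AP1M2), in 2 of 18 lower genes (11.1%: S100A4 and ACP2) and in 18.3% of 9240 tested genes. The ETS-type motif ACTTCCGG, searched in the same way, was found in 1 of 18 higher and 2 of 18 lower genes, against 9.53% of all. A match describes these letters only.

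SYK gave the largest rise among the genes past the threshold. SYK (chromosome 9, 90801600 to 90898549), a non-receptor tyrosine kinase of immune receptor signalling that some carcinoma cells also express, had 2.75, 1.07, 0.970 and 0.434 CPM in parental and 7.92, 8.56, 8.48 and 6.66 CPM in tagged libraries. It was low in all 8 and did not overlap between the lines, with a log2 fold change of 2.65 ± 0.38 (edgeR adjusted p 2.99e-04). Secreted or enzymatic products followed. PRSS22, a tryptase-like serine protease, rose from 3.69 ± 0.688 to 11.9 ± 2.61 CPM (log2 fold change 1.67 ± 0.30), and FABP6, the ileal bile acid-binding protein, from 2.01 ± 0.777 to 6.70 ± 2.64 CPM (1.71 ± 0.40). KLK7, a kallikrein protease, ALDH1A3, a retinaldehyde dehydrogenase, CDA, a cytidine deaminase, and DHDH, a dihydrodiol dehydrogenase, rose by log2 values of 0.56, 0.42, 0.76 and 1.11. FABP6 and DHDH were counted over only 63 and 36 bases. Among regulators and membrane proteins, the JNK kinase MAP2K7 (0.64), the Mediator subunit MED24 (0.80), the nucleic acid-binding protein PURA (0.48) and the B7-family protein CD276 (0.64) were higher. The actin-linked proteins PDLIM1 (0.79) and CRYBG1 (1.08), the microtubule-associated MTUS1 (0.62), the trafficking protein ARFIP2 (0.58), the acidic nuclear protein PTMS (0.42) and ELFN2, FAM107B and TMEM54 (0.85, 0.88 and 0.60) completed the 24.

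Among the 22 lower genes, the smallest adjusted p was that of SEMA3A. SEMA3A (chromosome 7, 83955777 to 84492725), a secreted semaphorin that repels growing axons, had 12.4, 21.8, 13.3 and 23.7 CPM in parental and 1.38, 2.22, 2.42 and 2.71 CPM in tagged libraries. It fell by 3.00 on the log2 scale (SE 0.25, edgeR adjusted p 4.22e-09), although the parental libraries themselves spread from 12.4 to 23.7 CPM. VCAN (chromosome 5, 83471744 to 83582302), the matrix proteoglycan versican, stood at 101, 114, 87.3 and 109 CPM against 42.7, 41.5, 43.3 and 30.8 CPM (log2 fold change -1.38 ± 0.15, edgeR adjusted p 2.53e-06). VIM (chromosome 10, 17228241 to 17237593), the mesenchymal intermediate filament vimentin, had 7.34, 10.9, 6.79 and 7.96 CPM in parental and 1.72, 1.90, 1.52 and 1.73 CPM in tagged libraries (-2.25 ± 0.33, edgeR adjusted p 3.40e-04). Vimentin reads were few, 176 over the parental and 23 over the tagged libraries. VGLL3, a cofactor of TEAD transcription factors, had 47 reads in parental and 0 in tagged libraries. Against a floor of 3 reads over the tagged group it was at least 10.0-fold lower. S100A4, a calcium-binding protein of motile cells, went from 267 ± 23.6 to 189 ± 14 CPM (-0.50 ± 0.11) and CAV1, the caveolar coat protein, from 287 ± 7.42 to 211 ± 17.4 CPM (-0.44 ± 0.10). The S100A4 call ended when parental replicate 1, 3 or 4 or any tagged library was left out (adjusted p 0.0615 to 0.129), and the CAV1 call in 8 of 17 alternatives (0.0571 to 0.189), all but 1 of them the omission of a library other than tagged replicate 3.

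The other lower genes had varied roles. CDK6 (chromosome 7, 92604921 to 92836573), a kinase of the G1 phase and a reported IGF2BP target, had 223, 258, 235 and 259 CPM in parental and 148, 155, 164 and 145 CPM in tagged libraries. The groups lay far apart (-0.67 ± 0.14, edgeR adjusted p 0.0274), yet the call ended without parental replicate 2 or 4 or tagged replicate 1, 2 or 4 (adjusted p 0.0765 to 0.110). NGRN (chromosome 15, 90265663 to 90272211), a mitochondrial ribosome assembly factor, went from 205, 177, 153 and 170 CPM to 98.8, 108, 106 and 105 CPM (-0.75 ± 0.12, edgeR adjusted p 0.00181). FGF9, a growth factor, averaged 14.5 ± 2.49 and 6.49 ± 0.862 CPM. Transcription factors and elongation factors among the lower genes were TP73 (-0.80), ETV1 (-0.76) and ELL2 (-0.69). The RNA-binding protein SAMD4A (-1.37), the collagen prolyl hydroxylase P3H1 (-0.93), the lysosomal phosphatase ACP2 (-0.70), the histone chaperone NAP1L1 (-0.41) and the actin-linked PDLIM5 (-0.55) were lower as well. IKBIP, NT5DC1, ANXA10 and CCDC18 had log2 fold changes of -0.88, -0.82, -2.79 and -2.17. ANXA10 and CCDC18 averaged under 5 CPM in both lines.

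**Figure D2:**
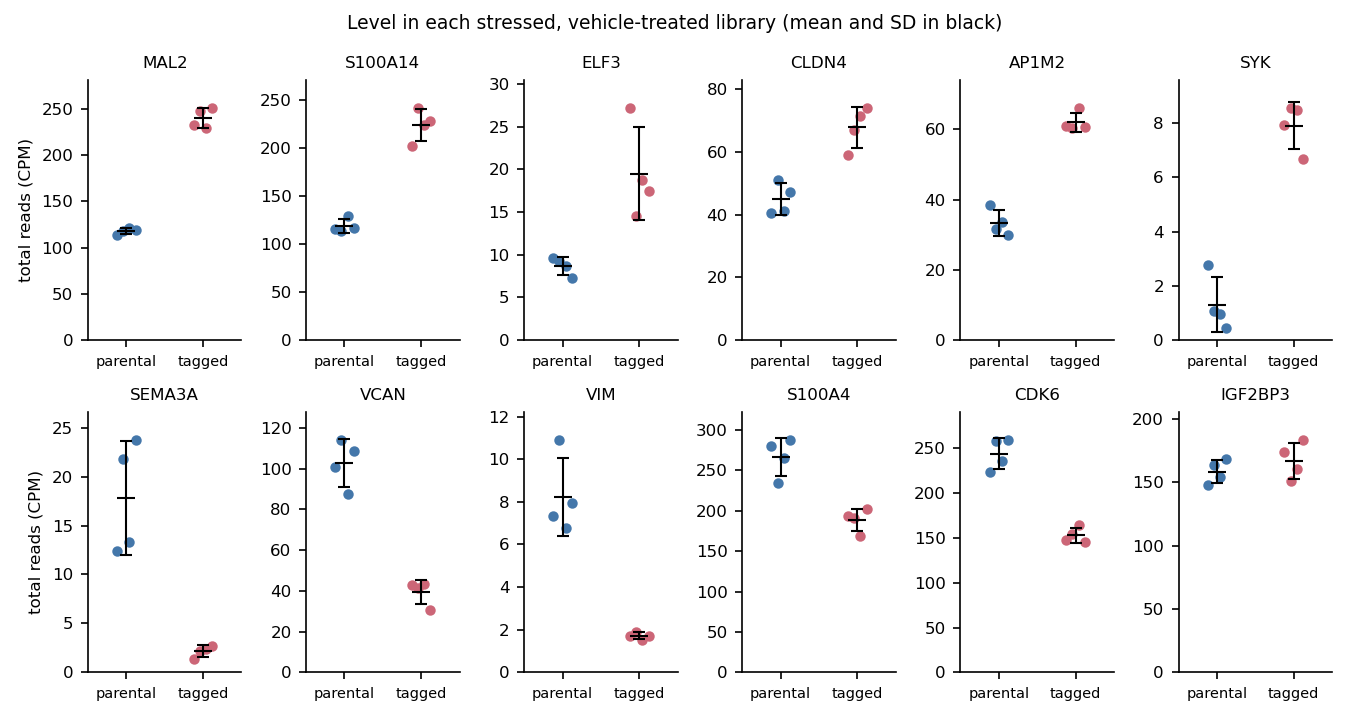
Total reads in CPM for 12 genes in each parental and tagged library under stress with vehicle (points), with mean and SD in black. MAL2, S100A14, ELF3, CLDN4, AP1M2 and SYK lay higher in all 4 tagged libraries, SEMA3A, VCAN, VIM, S100A4 and CDK6 lower, and IGF2BP3 overlapped.

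How firmly single calls stood varied. Of the 46 genes, 15 passed in every alternative in which they were tested, among them SYK, PRSS22, CRYBG1, MAL2, S100A14, AP1M2, SEMA3A, VIM, VCAN, VGLL3, PDLIM5, NAP1L1 and NGRN. The other 31 lost the call in at least 1 alternative, 15 of them only when 1 compared library was left out. KLK7 lost it in 11 of 17 alternatives, and FABP6, ARFIP2 and ETV1 in 10 of 17 each. None of the 46 changed direction in an alternative that was run.

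The same line comparison in libraries not used above showed which differences recurred. In unstressed cells with vehicle, 45 of the 46 genes had the same direction, against 48.4% of all genes, and 14 of them passed, where 27 genes (0.241%) passed in all (edgeR, 790 at an unadjusted p under 0.05). The shared 14 made up 30.4% of the stressed and 51.9% of the unstressed calls. Of the 46, 41 had the same direction in stressed cells with auxin (38.1% of all genes; 48 genes or 0.429% passed) and 39 in unstressed cells with auxin (44.2%; 37 or 0.331% passed). The stressed auxin pair holds the smallest library of the study. Altogether 38 kept 1 direction in all 4 pairs of groups, against 16.1% of all genes. SEMA3A, VCAN, ACP2, CDK6, PDLIM5 and S100A4 were lower, and MAL2 and CRYBG1 higher, with a call in every pair. SEMA3A stood at -2.61 in unstressed vehicle, -2.09 in stressed auxin and -2.59 in unstressed auxin, and MAL2 at 1.07, 0.91 and 0.93. CDK6 stood at -0.67, -1.16 and -0.88. The unstressed count was 147 without the smallest library, and 10, 12 and 12 without parental unstressed replicate 1, 2 or 4 and 8, 10, 9 and 11 without tagged unstressed replicate 1, 2, 3 or 4.

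The 8 genes that did not keep their direction were examined after their values were seen. MED24, ARFIP2 and PURA were higher in tagged cells in both vehicle pairs and lower in both auxin pairs: MED24 stood at 0.80 and 0.37 with vehicle and at -0.55 and -0.54 with auxin, stressed and unstressed. ARFIP2 had 0.58 and 0.30 against -0.34 and -0.30, and PURA 0.48 and 0.34 against -0.21 and -0.29. CCDC18, at -2.17 in stressed vehicle, had positive values elsewhere (0.44, 0.72 and 0.10). DHDH, MAP2K7, CD276 and PTMS changed sign in 1 auxin pair each. Whether the line difference itself differed between vehicle and auxin was not tested.

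**Figure D3:**
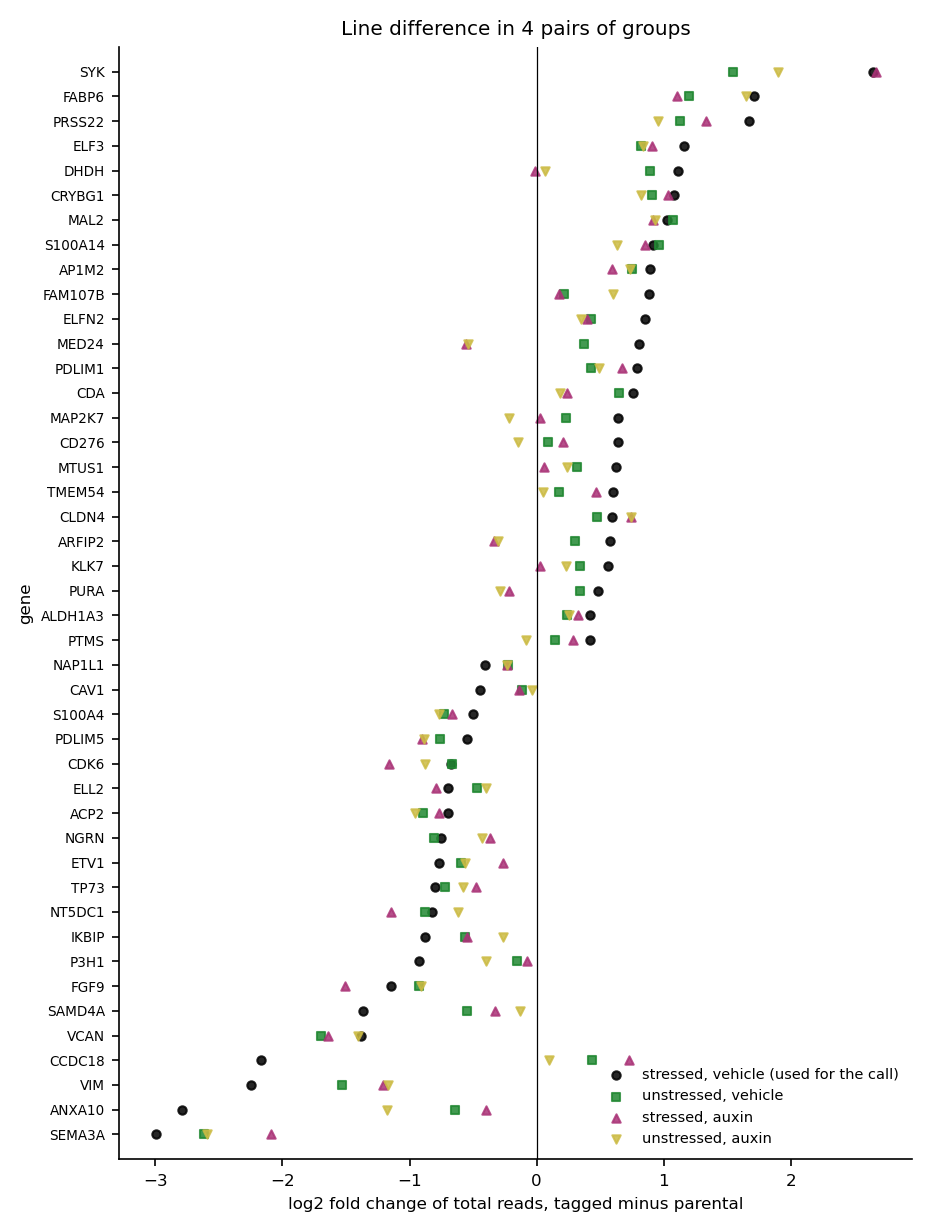
Log2 fold change of total reads, tagged minus parental, for 44 of the 46 genes past the threshold under stress with vehicle (black circles), and for the same genes in unstressed vehicle (squares), stressed auxin (upward triangles) and unstressed auxin (downward triangles); VGLL3, with 0 reads in 1 group, and 1 other gene are left out. Symbols of most genes lie on 1 side of 0, while MED24, ARFIP2 and PURA cross it with auxin.

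Whether stress altered the line difference was tested directly with vehicle. The line difference under stress minus that without stress passed for 0 of 11184 genes in edgeR (823 at an unadjusted p under 0.05; smallest adjusted p 0.649) and for 0 in DESeq2 (1001). Of the 46 genes, 10 had an unadjusted p under 0.05, including CAV1 (-0.33), P3H1 (-0.77) and CD276 (0.55). The 46 were chosen by the stressed difference, which this contrast contains. That choice alone moves the contrast away from 0, so nothing is read from the 10. Among genes called only without stress were CDH1, the adhesion protein E-cadherin, at 1.43 unstressed and 0.23 stressed, and CLDN7, another claudin, at 0.61 and 0.44. PXDN, a matrix peroxidase, stood at -2.83 unstressed and -2.36 stressed (edgeR adjusted p 0.0863). A call in 1 state and not in the other does not show that these genes differed between states.

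Libraries of a group also spread along a common axis, the first principal component of within-group differences in total reads, which holds 40.6% of that variance (7112 genes). The smallest library was left out when the axis and this share were computed. Replicate 1 of parental cells under stress with auxin, the smallest library, stood farthest out on it, with a score of 7.83 from the mean of its group mates. The other libraries scored -2.25 to 2.01, each from a group mean that includes itself. That library held 0.987 M reads in named genes, 15.1 T positions per read, 9.97% of reads in its 10 top genes and 43.5% unmatched counts, whereas the 8 compared libraries held 21.3 to 23.3 T per read. Across those 7112 genes, which are not independent replicates, the line difference followed the axis with a Pearson r of 0.750 under stress and of -0.526 without stress, both with vehicle. With auxin, r was -0.603 under stress and -0.34 without. For the vehicle line difference under stress minus that without stress, r was 0.862. On this axis, the parental libraries scored -0.07, -2.19, -0.09 and -0.10, and the tagged libraries 0.76, 1.30, -0.43 and 2.59. Parental replicate 2 and tagged replicate 4 were therefore the most distant pair. With each library's score as a covariate, a setting chosen after seeing the data, 102 genes passed, including 42 of the 46. Of those 102, 102 had the same direction in unstressed vehicle cells, 92 in stressed and 86 in unstressed cells with auxin. Of the 386 genes called without the smallest library, 385 of which were tested in all libraries, 308 (80.0%), 162 (42.1%) and 206 (53.5%) did. For all genes the shares were 48.4%, 38.1% and 44.2%. Directions in the other pairs came from the fit over all libraries, where the stressed auxin pair holds the smallest library. How far that library sets these shares was not tested. The part of the axis in single calls was not tested.

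Gene lists were then read by the counts of their members. Of 25 tested epithelial genes, 2 rose, CLDN4 and ELF3, and 0 fell, against 0.215% and 0.197% of all genes. In 20 of the 25 the tagged mean was above the parental one, the median log2 difference was 0.23 against -0.01 for all genes, and in 8 the tagged libraries all lay above the parental ones, against 6.33% of all genes. The opposite order occurred in 0 of 25 (5.79% of all genes). Members short of the threshold included KRT19, a keratin (0.33, adjusted p 0.236), CDX2, an intestinal transcription factor (0.41, 0.267), and GRHL2, an activator of epithelial genes (0.95, 0.289), all edgeR. The lowest member stood at -0.44. The list had medians of 0.18, 0.32 and 0.20 in unstressed vehicle, stressed auxin and unstressed auxin. Summed over the list on unscaled library sizes, parental libraries held 3152 to 3323 and tagged libraries 3709 to 3853 CPM. KRT18 and KRT19 held much of this sum. In parental libraries they stood at 688 to 850 and 735 to 870, and in tagged libraries at 760 to 922 and 948 to 1096. Without the smallest library 5 rose (KRT19, PKP3, CLDN7, CLDN4 and ELF3), and with the axis score as a covariate 7 did, among them CDH1, EPCAM and GRHL2. Over all genes 252 of 11256 and 51 of 11184 rose in these settings.

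Of 27 tested mesenchymal and motility genes, 3 fell, VIM, S100A4 and CAV1, and 0 rose, against 0.197% and 0.215% of all genes. The median was -0.41, with -0.12, -0.20 and -0.14 in unstressed vehicle, stressed auxin and unstressed auxin. The parental libraries all lay above the tagged ones in 6 of the 27 (5.79% of all genes), and the tagged ones above in 1, ITGA5 (6.33% of all genes). ZEB1, a repressor of epithelial genes, had 4.94 ± 0.401 CPM in parental and 1.92 ± 0.664 CPM in tagged cells (SD, n = 4; log2 difference -1.38 ± 0.36, edgeR adjusted p 0.0936). It passed without the smallest library, a setting that gave 4 lower genes in the list and 134 of 11256 over all genes. Other members had values above 0: AXL (0.20), LGALS1 (0.18) and FN1 (0.23). The summed list, on unscaled library sizes, held 2860 to 3080 CPM in parental and 2841 to 2947 in tagged libraries. With the axis score as a covariate the median was -0.22, and the same 3 genes fell. In these cultures fewer cells of a kind and less RNA per cell cannot be told apart.

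**Figure D4:**
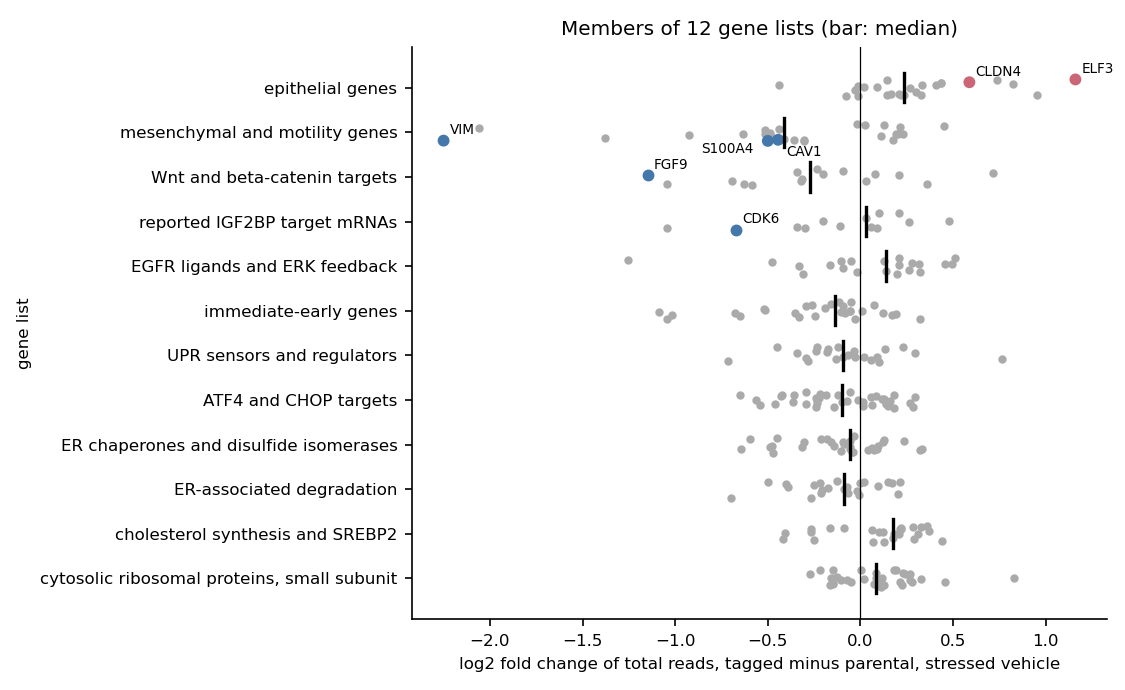
Log2 fold change of total reads, tagged minus parental, under stress with vehicle, for tested members (points) of 12 gene lists, with bars at list medians and genes past the threshold in colour. Epithelial genes had a median of 0.23 and mesenchymal genes one of -0.41. The stress lists drawn had medians from -0.10 to -0.06 and no coloured point.

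No gene of the stress response lists passed. Of 23 UPR sensors and regulators, 39 targets of ATF4 and CHOP, 31 ER chaperones and disulfide isomerases, 23 ER-associated degradation genes, 43 secretory genes and 35 N-glycosylation genes, 0 passed in either direction, with medians of -0.10, -0.10, -0.06, -0.09, -0.11 and -0.00. Over all genes 0.411% passed, so 0 calls in lists of these sizes is near that share and shows nothing particular to them. In the same order 8, 16, 10, 6, 10 and 17 members lay above 0, against 48.6% of all genes. The parental libraries lay wholly above the tagged ones in 1, 4, 4, 4, 6 and 3 members (5.79% of all genes), and the tagged ones above in 1, 2, 0, 1, 1 and 3 (6.33%). HSPA5, the ER chaperone BiP, had 4291, 4396, 4025 and 4684 CPM in parental and 4013, 4402, 3319 and 4537 CPM in tagged libraries (-0.10 ± 0.11, edgeR adjusted p 0.742). DDIT3, which encodes CHOP, had 863 ± 69.2 and 843 ± 106 CPM (SD, n = 4; -0.03 ± 0.17, edgeR adjusted p 0.952). Both genes overlapped between the lines. Larger values short of the threshold were those of NFE2L2, the oxidant-response factor (-0.72 ± 0.31, edgeR adjusted p 0.385), DNAJB9, an ER co-chaperone (-0.60 ± 0.29, 0.424), and ATF6B (0.77 ± 0.34, 0.399). Using only the 8 compared libraries, which gave 393 calls over all genes, 3 ATF4 and CHOP targets passed (PSAT1, PYCR1 and SESN2), 2 ER chaperones (TXNDC5 and PDIA6), 3 secretory genes (SEC61B, SEC23A and KDELR1) and 2 N-glycosylation genes (ALG13 and MOGS). Without the smallest library, which gave 386 calls over all genes, ERLEC1, ALG13 and MOGS did, all lower in tagged cells.

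Of 13 tested mRNAs reported as IGF2BP targets, 1 passed, CDK6, against 0.411% of all genes, and 7 lay above 0. Without the smallest library 4 did (CDK6, HMGA2, MKI67 and HMGA1), using only the 8 compared libraries 4 (MYC, CDK6, HMGA2 and HMGA1), and with the axis score as a covariate 3 (CDK6, HMGA2 and HMGA1). Over all genes these settings called 386 of 11256, 393 of 10750 and 102 of 11184. MYC, the growth regulator often named as a target, had 32.1, 55.9, 33.5 and 25.6 CPM in parental and 15.8, 14.6, 24.5 and 16.3 CPM in tagged libraries. All parental values were above the tagged ones by a small margin, and the log2 difference of -1.04 ± 0.29 did not pass (edgeR adjusted p 0.145), while in unstressed cells it was -0.03. HMGA2, an architectural chromatin protein, stood at -0.30 and HMGA1, its relative, at 0.48, and neither passed over all libraries. In unstressed cells HMGA2 passed at -0.40 (edgeR adjusted p 0.0336). Of 16 Wnt and beta-catenin targets 1 fell, FGF9, against 0.197% of all genes. DKK1, a Wnt inhibitor, stood at -0.69 ± 0.26 (edgeR adjusted p 0.308). Of 9 aryl hydrocarbon receptor targets 1 rose, ALDH1A3, against 0.215% of all genes. In the 23 remaining tested lists, from EGFR ligands to ribosomal proteins, 0 of 527 members passed over all libraries, against 0.411% of all genes. Without the smallest library 17 of these lists had a call, among them PHLDA2, TGFA, RFC4 and RPS14. Of 527 members, 19 were higher and 5 lower, against 386 calls in 11256 genes. Using only the 8 compared libraries, 16 lists had one, with 22 members higher and 8 lower of 516, against 393 calls in 10750 genes. These counts are not read as a result about the lists. A gene in several lists counts in each.

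Labelled reads are meant to count RNA made during the 2 h of s4U, though their background without s4U was not measured here. In edgeR 9 of 8978 genes passed (0.1%): 4 were higher in tagged cells (0.0446%) and 5 lower (0.0557%). At an unadjusted p under 0.05 there were 860. Of the 46 genes above, 36 could be tested for labelled reads; 35 had the same direction, and 5 passed. Labelled reads are part of the total reads that chose these genes, and over all 8978 genes the directions of both matched in 74.3%, so nothing is read from that count. NGRN had 627, 562, 529 and 525 labelled CPM in parental and 220, 279, 239 and 229 in tagged libraries, a log2 fold change of -1.21 ± 0.18 (edgeR adjusted p 2.84e-05). VCAN (-1.74 ± 0.31) and CDK6 (-0.88 ± 0.16) fell and MAL2 (1.14 ± 0.20) and FAM107B (1.39 ± 0.28) rose in labelled reads too. The changes in total reads were -1.38 for VCAN, -0.67 for CDK6, 1.03 for MAL2 and 0.88 for FAM107B. The other 4 calls were PALM2AKAP2, an anchoring protein of kinase A (0.89 ± 0.18), TRIM39-RPP21 (0.97 ± 0.21), GEMIN2, a factor of spliceosomal RNP assembly (-2.23 ± 0.51), and RDH10, a retinol dehydrogenase. TRIM39-RPP21 is a read-through gene that shares reads with RPP21, so its source is uncertain. Its labelled reads also carried only 0.776 and 0.821 counted conversions each in parental and tagged cells, under the 1 that a labelled read should hold, so the counting of this gene is in doubt. RDH10 had 43 labelled reads in parental and 2 in tagged libraries, a ratio of 0.0728 (exact 95% interval 0.00854 to 0.279, counting error only), with total reads at 10.5 ± 0.315 and 8.89 ± 1.52 CPM. GEMIN2 had 91 labelled reads in parental and 12 in tagged libraries. The GEMIN2 call ended in 8 of 18 alternatives and the RDH10 call in 9 of 17. In unstressed vehicle, stressed auxin and unstressed auxin, GEMIN2 stood at 0.12, 0.36 and -0.42 and RDH10 at -0.68, 0.64 and -0.07. The labelled count was 63 without the smallest library, 4 and 5 without parental replicate 2 or 4, and 5, 16 and 4 without tagged replicate 1, 3 or 4.

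The labelled share separated the lines in 1 of 8978 genes (0.0111%; edgeR, 580 at an unadjusted p under 0.05). SEPTIN10 (chromosome 2, 109542799 to 109613966), a filament-forming GTP-binding protein, had 18.6%, 13.9%, 12.8% and 15.5% labelled reads in parental and 36.2%, 33.1%, 27.7% and 31.9% in tagged libraries. The groups lay far apart with no overlap (log2 ratio difference 1.39 ± 0.28, edgeR adjusted p 0.0303), on 163 labelled of 1078 reads in parental and 152 of 476 in tagged cells. The call held in 9 of 19 alternatives; it ended in DESeq2, in limma, with the axis score as a covariate, and without parental replicate 2, 3 or 4 or any tagged library (adjusted p 0.0571 to 0.591). In libraries outside the comparison the SEPTIN10 difference was 1.39 in unstressed vehicle (14.7% against 29.5%; edgeR adjusted p 0.114), 1.52 in stressed auxin (0.00563) and 1.66 in unstressed auxin (5.74e-04). Total SEPTIN10 reads stood at 51.2 ± 5.56 and 35.9 ± 5.39 CPM (-0.52 ± 0.21, edgeR adjusted p 0.350), without overlap between the lines.

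NGRN had the opposite pattern, chosen for a closer reading after its values were seen. Its labelled share was 34.4%, 37.9%, 36.7% and 35.9% in parental and 25.1%, 31.0%, 24.2% and 25.3% in tagged libraries, without overlap (-0.68 ± 0.16, edgeR adjusted p 0.101). Without stress the difference was -1.07 (adjusted p 3.37e-04). Conversions per covered T position gave another reading of the same gene: 1.87% ± 0.146 in parental and 1.77% ± 0.144 in tagged cells (SD, n = 4), with overlapping ranges of 1.65% to 1.95% and 1.66% to 1.96%. Labelled NGRN reads carried 1.51 conversions each in parental and 1.95 in tagged cells, while the median of 5015 genes was 1.56 and 1.66. For SEPTIN10, conversions per T did follow the share, 0.849% ± 0.232 and 1.74% ± 0.399, with ranges of 0.610% to 1.11% and 1.22% to 2.10% that did not overlap. Of the 46 genes, 0 passed for the labelled share, and the median of the 36 tested was 0.03.

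**Figure D5:**
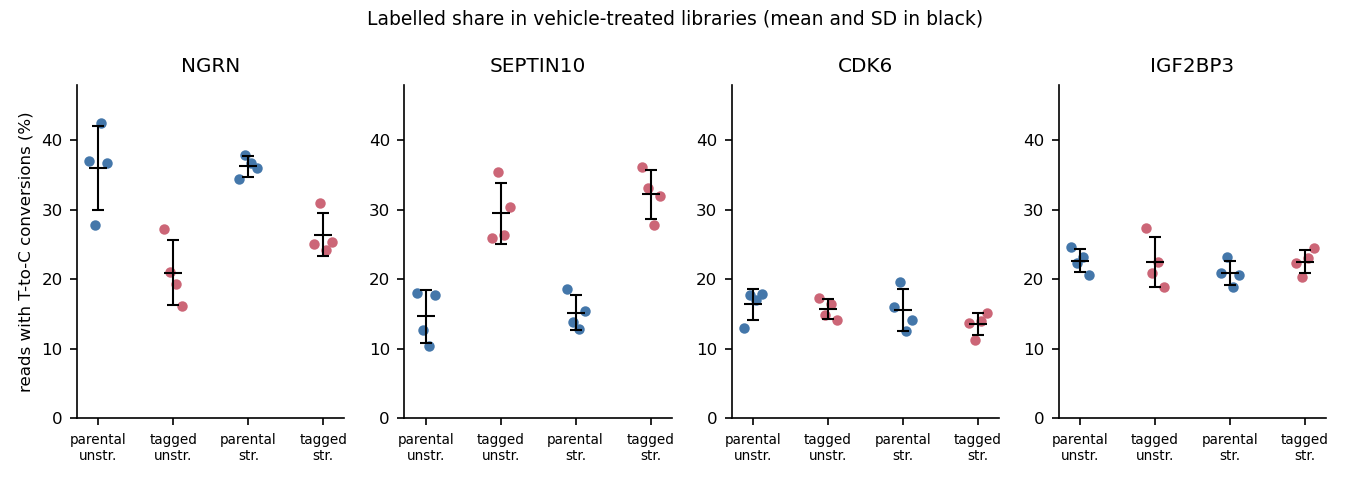
Percentage of a gene's reads with T-to-C conversions in vehicle-treated parental and tagged libraries (points), unstressed (unstr.) and stressed (str.), with mean and SD in black, for NGRN, SEPTIN10, CDK6 and IGF2BP3. Under stress SEPTIN10 averaged 15.2% in parental and 32.2% in tagged cells and NGRN 36.2% and 26.4%, whereas CDK6 and IGF2BP3 overlapped between the lines.

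For labelling at the level of the library, exact permutation tests (two-sided, 4 against 4) were used, whose smallest possible p is 0.0286. Of the reads in named genes, 11.8% ± 0.739 were labelled in parental and 11.9% ± 0.467 in tagged libraries (SD, n = 4; difference 0.0226 points, exact p 1). The sign of that difference turned to -0.0650 without parental replicate 1, -0.267 without parental replicate 3, -0.151 without tagged replicate 2 and -0.0401 without tagged replicate 4. Of the covered T positions, 0.806% ± 0.0424 were converted in parental and 0.887% ± 0.050 in tagged libraries, a difference of 0.0804 points (exact p 0.0857, adjusted 0.171 over the 2 comparisons). Without tagged replicate 3 that difference was 0.102 points (exact p 0.0286). Neither comparison passed in full, which does not show that labelling was equal.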

How the data were processed

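SLAM-seq 3′-end libraries of HCT116 cells were made by the authors with s4U in every library, per the labels' protocols, so the conversion background without s4U was not analysed here. The deposited tables hold whole-number counts per transcript (reads, reads with T-to-C conversions, covered T positions and conversions), per the file headers, which follow Slamdunk's layout; the build is hg38, per the submitters' processing notes. For the aligner settings and the conversions needed to call a read labelled, the entry is: not given in the sources used here.

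Of 40767 curated mRNA identifiers, 40002 were matched to symbols of RefSeq GRCh38.p14, and the transcript with the most reads stood for each gene. Unmatched transcripts, 37.2% to 38.1% of counts in the 8 libraries, were left out, as were 72 genes with counts identical to another gene. Levels are CPM on TMM-scaled sizes. Groups came from the labels. edgeR 4.0.16 in R 4.3.3 (TMM, filterByExpr, robust quasi-likelihood test) was fitted over all 32 libraries with 1 coefficient per group and Benjamini-Hochberg adjustment over all genes. For the labelled share, labelled and other reads were paired with a term per library, so that a difference is relative to the typical gene. Alternatives included DESeq2 1.42.0, limma 3.58.1, other scalings and filters, left-out libraries and covariates. Genes past the threshold of 0.05 were named, with list members of the largest change; genes and lists were chosen with earlier results of these data known. After the main fit, the tests were run on simulated counts with known changes, drawn with a spread estimated from these data. Of 66 genes changed by 0.6 on the log2 scale, 22 were called for total reads, 7 for labelled reads and 0 for the share. Of 67 changed by 1, the counts were 46, 34 and 10, so small differences were often missed. PCR copies were not marked by molecular identifiers, so counting intervals cover counting error only. Some results for single genes are not reported here.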

Additional observations from a re-analysis of the deposited data

Results flagged for a closer look

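Among 100 sets of 4 libraries checked for 1 library far from the other 3, 7 were found, and chance flags about 1 in 20 groups. Each lay far from its group mates relative to the range of the group. PRSS22 was lowest in parental replicate 3, at 2.67 CPM against 3.93 to 4.13 in the others, and CRYBG1 highest in the same library, at 16.5 CPM against 8.68 to 9.17. AP1M2 was highest in tagged replicate 3 (66.1 CPM against 60.2 to 60.9), VCAN lowest in tagged replicate 4 (30.8 CPM against 41.5 to 43.3) and P3H1 highest in tagged replicate 4 (8.87 CPM against 5.85 to 6.34). TP73 was lowest in tagged replicate 2, at 12.7 CPM against 22.9 to 23.9, and CCDC18 highest in tagged replicate 1, at 1.72 CPM against 0.493 to 0.634. The 7 genes are among the 46 already known not to overlap between the lines, so that a gap remained is no separate check.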

How the results depend on the processing

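For total reads under stress, DESeq2 called 112 genes, all 46 among them, the fit without the smallest library 386 and the fit on 8 libraries 393. The within-group axis as a covariate gave 1259 genes; by its construction it takes out spread within groups and leaves the group difference along the axis. The uncentred axis score gave 102. Leaving out 1 compared library gave 16 to 38. For unstressed vehicle these settings gave 61, 147, 13, 507 and 97, and single omissions 8 to 25. The difference of the line effect between states had 0 calls except with the within-group axis (829). For labelled reads, DESeq2 gave 16 genes, no filter 37, the within-group axis 134, the fit without the smallest library 63, the fit on 8 libraries 98, and single omissions 4 to 16. For the labelled share, no filter gave 11, the within-group axis 2, the fit on 8 libraries 8, limma 2, DESeq2 0 (355 at an unadjusted p under 0.05), and single omissions 0 to 1. The cause was not tested.

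The difference in percent of reads labelled was -0.0401 over all transcripts, with single omissions from -0.267 to 0.310; that in converted T was 0.0629 to 0.102. Same-numbered libraries showed no clear common deviation (r 0.0111, -0.0673, -0.134 and 0.223). So few values cannot exclude that the numbers pair the wells. With a replicate block, 40 genes passed for total reads, 39 of them among the 46, 18 unstressed, 8 for labelled reads and 2 for the share. Depth limits the low genes: SYK, FABP6, SAMD4A, ANXA10, CCDC18, VGLL3 and VIM averaged under 10 CPM in both lines.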
